A study of Homo sapiens with 20 samples.

Results

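Promoter sites that carried a peak of CTCF and of every cohesin subunit assayed, in every library, were examined in M14 cells, a line derived from human melanoma. A site was a peak of the WT CTCF list of set 1 on chromosomes 1 to 22 and X. It was kept when it overlapped a peak in each of the other 15 lists by at least 1 bp and its midpoint lay within 1 kb of an annotated transcript start. Of 86248 peaks, 8469 (9.82%) met this rule. They were 22.1% of the 38290 sites found in all 16 lists, and the other 29821 such sites, farther than 1 kb from a start, are called distal sites. The sites were thus chosen by peak presence in these same lists, and their presence and annotation are no result here.

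All cells carried a doxycycline-inducible shRNA against STAG2 in a stably transduced line. STAG2-KD cells were cultured with doxycycline and WT cells without it, for 5 d per the labels of set 1, while the labels of set 2 give no duration. Chromatin was precipitated with antibodies to STAG1, STAG2, CTCF and SMC1A, and for every antibody sets 1 and 2 each held 1 WT and 1 STAG2-KD library. The sets differed in chromatin extraction and size selection (beads in set 1, an agarose gel in set 2), and their lists had different thresholds. The lists held 58418 to 91489 peaks in set 1 and 98437 to 150282 in set 2. The labels do not say whether the cultures were separate, so each p-value measures only the spread between these libraries. Within a set, the 4 antibodies of a condition shared 1 input library as their control, so their lists are not independent of each other.

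CTCF is a zinc-finger protein that binds a defined DNA sequence and acts as an orientation-dependent barrier at chromatin loops. Cohesin is a ring of SMC1A, SMC3 and RAD21 to which either STAG1 or STAG2 is joined. It is loaded by NIPBL and MAU2, moves along chromatin and accumulates at CTCF sites and at active promoters.

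Fold enrichment is the ratio of the read pileup at a peak's summit to the pileup expected there from the input. The strongest sites by this measure, ranked by the lowest percentile a site reached in any of the 16 lists, lay at NOTUM, GRIK4, ITGA9, ENSG00000284797 and LINC02762, whose lowest percentiles were 97.6 to 99.5. NOTUM encodes a secreted enzyme that inactivates Wnt proteins, GRIK4 a kainate-type glutamate receptor subunit and ITGA9 an integrin alpha chain. The bases around the CTCF summits of 4 of them follow as the hg19 plus strand, to show what lies under the strongest sites, with a match to the core of the CTCF motif in capitals where there is one. The GRIK4 (chr11:120381897-120381997) match is on the plus strand and the ENSG00000284797 (chr19:18362753-18362853) match is on the minus strand. The LINC02762 (chr11:112160848-112160948) and NOTUM (chr17:79917696-79917724) windows hold no match to the core letters.
GRIK4: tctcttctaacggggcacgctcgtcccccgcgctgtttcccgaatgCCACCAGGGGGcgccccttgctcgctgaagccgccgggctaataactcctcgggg
ENSG00000284797: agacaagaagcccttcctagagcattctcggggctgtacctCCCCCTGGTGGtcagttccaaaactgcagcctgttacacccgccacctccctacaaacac
LINC02762: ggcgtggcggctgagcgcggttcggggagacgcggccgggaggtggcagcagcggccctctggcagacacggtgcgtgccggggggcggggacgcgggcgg
NOTUM: ctcggccaggcccacggggagctcaggga

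The NOTUM site (chr17:79917097-79918349, midpoint 37 bp upstream of the start, summit in an intron of an annotated transcript) had a CTCF fold enrichment of 124 in WT and 114 in STAG2-KD in set 1, and of 85.8 and 66.1 in set 2. Its SMC1A fold enrichment was 83.1 and 86.1 in set 1 and 57.2 and 48.7 in set 2. WT and STAG2-KD values overlapped across the sets for SMC1A and for CTCF, although CTCF was lower in STAG2-KD within each set. At GRIK4 (chr11:120381463-120382738, 354 bp upstream) the STAG1 fold enrichment was 62.0 and 85.0 in set 1 and 36.7 and 42.5 in set 2. The ITGA9 site gave 61.2 and 76.9, then 35.3 and 40.9. At both, set 1 values were above set 2 values in either condition.

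The 8469 sites lay near 8995 genes, of which 5773 were protein-coding. These were 28.7% of the 20098 annotated coding genes, which is the background for the gene lists below. In all, 5268 sites (62.2%) were within 1 kb of a coding start, 3201 (37.8%) were near other starts only, and 1357 (16.02%) were near lncRNA starts only. Transcript starts on both strands lay within reach of 1639 sites (19.4%). Distance was measured from the nearest coding start where one lay within 1 kb, otherwise from the nearest start of any transcript. By this measure the midpoint was a median of 21 bp upstream (quartiles 238 bp upstream and 218 bp downstream). It was upstream at 54.1% of sites and within 250 bp at 52.2%. The 12239 promoter peaks of the starting list that were missing from at least 1 other list lay a median of 30 bp downstream, with 44.9% upstream and 47.7% within 250 bp.

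**Figure D1:**
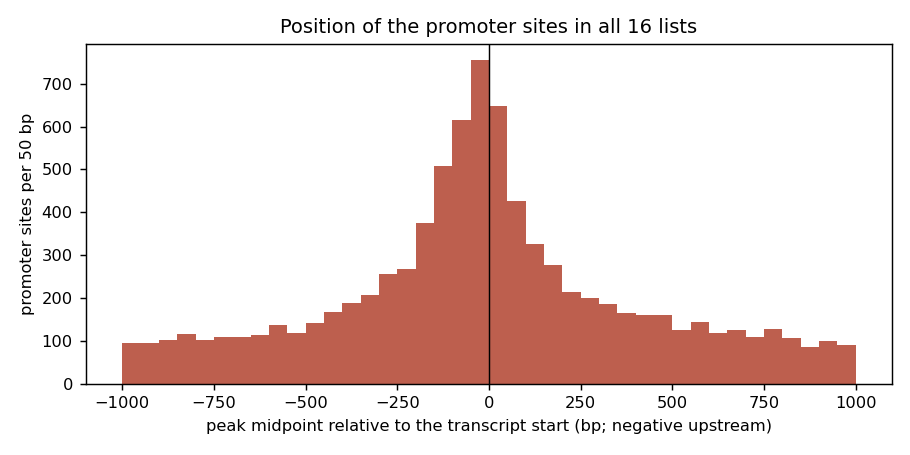
Number of promoter sites present in all 16 lists per 50 bp (vertical axis) against the distance of the peak midpoint from the transcript start in bp (horizontal axis, negative upstream). The start was the nearest coding one within 1 kb, otherwise the nearest of any transcript. The sites gathered at the start, with a median 21 bp upstream, and the flanks out to 1000 bp on either side were nearly level.

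Of the 20708 promoter peaks in the starting list, 40.9% were in all 16 lists. This share was lowest on chromosomes X (30.6%), 19 (33.0%) and 22 (35.7%) and highest on chromosomes 18 (47.3%) and 2 (46.8%). Another 1925 promoter peaks (9.30%) were in exactly 15 lists. For 805 of them (41.8%) the missing list was STAG1 WT of set 1, for 488 (25.4%) STAG2 STAG2-KD of set 1, and for 224 (11.6%) CTCF STAG2-KD of set 1, while each list of set 2 was the missing one for 0 to 5. The shorter set 1 lists were thus the missing ones at most of these promoters. The promoter sites just inside the limit were at THADA and RNA5SP273, whose midpoints were 1000 bp from a start. The sites just outside it were at CIAO1 and AVPR1A, at 1001 bp. In the WT STAG1 list of set 1 their fold enrichments were 19.6 (THADA), 18.0 (RNA5SP273), 17.8 (CIAO1) and 5.83 (AVPR1A).

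Sequence was not used to choose the sites. A match to the CTCF core within 100 bp of the summit was found at 1745 promoter sites (20.6%, Wilson 95% interval 19.8% to 21.5%, for counting error only), at 32.6% of distal sites and at 9.42% of promoter peaks missing from some list. Windows of equal length held it at 1.31% of all 219838 annotated starts and at 0.886% of positions 5 kb away. The promoter sites had a median GC content of 62.2% and an observed-to-expected CpG ratio of 0.638, and the distal sites 46.8% and 0.221. All annotated starts had 56.2% and 0.447.

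Promoter motifs were counted in the same windows on both strands, without asking whether matches overlapped. The GC box GGGCGG, bound by Sp1-type factors, was at 36.8% of promoter sites, 7.15% of distal sites, 36.4% of promoter peaks missing from some list and 29.3% of all starts. The ETS letters CCGGAAG were at 4.96%, 1.16%, 4.28% and 6.70%, and the NRF1 letters CGCATGCG at 0.827%, 0.0469%, 0.572% and 1.16%. CCAAT was at 16.1%, 24.7%, 15.5% and 24.1%, and TATAAA at 4.94%, 11.7%, 3.47% and 8.13%. By these letters the promoter sites resembled other GC-rich promoter peaks more than distal CTCF sites. Of the remaining letters, the E-box CACGTG was at 3.97% of promoter sites, the AP-1 letters TGANTCA at 3.51%, the ZNF143 letters ACTACAA at 1.43%, the YY1 letters AAGATGGCG at 0.720% and the CRE TGACGTCA at 0.543%. In all annotated starts these were at 4.38%, 4.81%, 1.93%, 1.44% and 1.08%. No match says only that these letters were not in the window.

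At 1688 promoter sites with exactly 1 core match and a stranded gene, the core lay on the gene's strand at 932 (55.2%). The share was 58.2% (555 of 954) upstream of the start and 51.4% (377 of 734) downstream of it.

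CTCF was about as strong at these promoters as at distal sites, and STAG1 and STAG2 were weaker. The median CTCF fold enrichment was 45.9 at promoter sites and 47.5 at distal sites in WT set 1, 47.4 and 50.0 in STAG2-KD set 1, 32.8 and 34.2 in WT set 2, and 31.4 and 33.8 in STAG2-KD set 2. For STAG1 the same pairs were 13.6 and 23.8, 19.8 and 32.6, 12.4 and 17.2, and 12.9 and 18.1. For STAG2 they were 16.3 and 23.3, 12.2 and 16.3, 13.9 and 16.9, and 12.8 and 14.8. In each of these lists the promoter median was the lower one. SMC1A, which belongs to cohesin whichever STAG is joined, had 13.8 and 15.6, 16.1 and 19.3, 12.1 and 12.9, and 14.2 and 15.98.

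**Figure D2:**
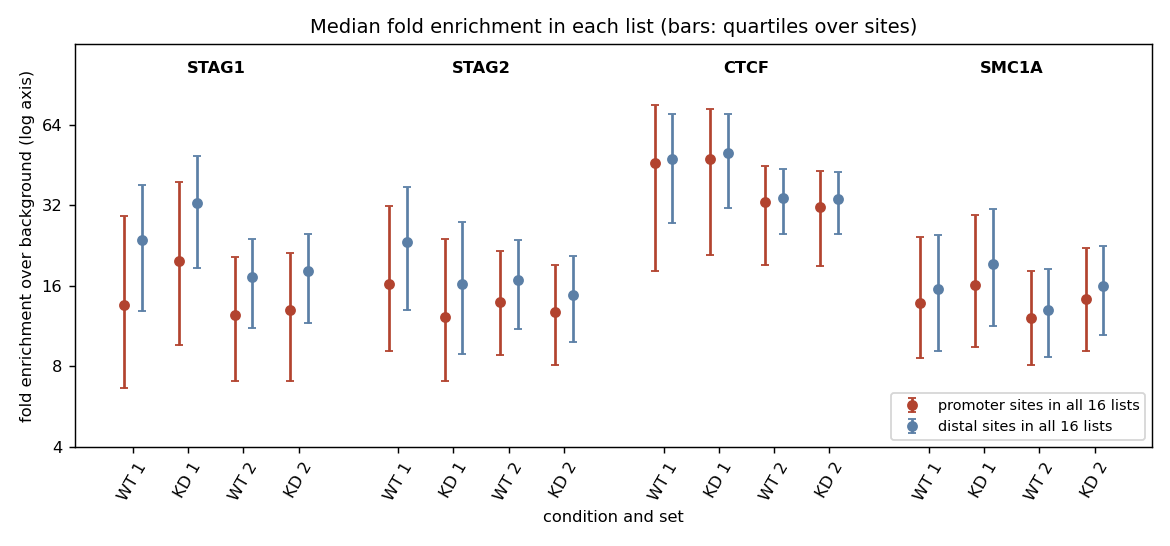
Median fold enrichment over the input background (vertical axis, log scale) in each of the 16 lists (horizontal axis, by antibody, condition and set) at the promoter sites and at the distal sites in all 16 lists, with bars for the quartiles over sites. STAG1 medians at promoter sites (12.4 to 19.8) lay below those at distal sites (17.2 to 32.6) in every list, while the CTCF pairs nearly coincided.

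On the log2 scale the promoter median was below the distal median by 0.81, 0.72, 0.47 and 0.48 for STAG1, in the order WT and STAG2-KD of set 1, then of set 2. The differences were -0.52, -0.42, -0.28 and -0.21 for STAG2, -0.17, -0.26, -0.10 and -0.17 for SMC1A, and -0.05, -0.08, -0.06 and -0.11 for CTCF. The mean over the cohesin lists was -0.38 ± 0.23 (SD, n = 12) and over the CTCF lists -0.07 ± 0.02 (SD, n = 4). The difference of -0.31 had an exact two-sided permutation p of 0.017 over lists (Benjamini-Hochberg adjusted p = 0.0255 over 3 tests between antibodies, smallest possible p 0.000549). The permutation took lists of the same antibody as separate units, so its p does not measure a spread between antibodies. Within set 1 it was -0.42 (exact permutation p = 0.0714) and within set 2 -0.20 (p = 0.107), so neither set passed on its own 8 lists. SMC1A lists lay nearer to CTCF lists than STAG1 lists did. STAG1 (-0.62 ± 0.17, n = 4) and STAG2 (-0.36 ± 0.14, n = 4) differed by -0.26, with an exact permutation p of 0.0857 (adjusted p = 0.0857, smallest possible p 0.0286), so this difference did not pass the test. It had a p of 0.0286 by the same exact permutation test at a stricter q-value and where summits were required to lie within 200 bp.

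The fold enrichment depends on the input as well as on the precipitated reads, and these parts were separated from the fold and p-value columns, which fix the number of reads at each summit. Median summit reads at promoter and distal sites were 55 and 99, 71 and 121, 91 and 125, and 88 and 123 for STAG1 in the order above. They were 64 and 93, 45 and 62, 93 and 111, and 91 and 103 for STAG2. For CTCF they were 105 and 109, 118 and 123, 144 and 146, and 150 and 152. For SMC1A they were 33 and 37, 43 and 51, 62 and 64, and 76 and 81. The deficit of STAG1 and STAG2 at promoter sites was thus also in the reads themselves, and the cohesin and CTCF lists differed by -0.34 by reads (exact permutation p = 0.0198). The highest number of reads at any promoter site was 204 to 240 in the lists of set 1 and 231 to 299 in those of set 2. In the CTCF lists of set 1, 20.0% and 22.7% of promoter sites were at 80% or more of the highest value, beside 9.35% and 14.3% in the STAG1 lists of set 1 and 0.307% to 1.16% in the SMC1A lists, so many of the strongest CTCF sites gathered near the top of the range.

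The promoter-minus-distal difference of each antibody was larger at sites of higher GC content. Between 40% and 50% GC the mean promoter-minus-distal difference was -0.17 in STAG1 lists, -0.11 in STAG2 lists, -0.02 in CTCF lists and -0.05 in SMC1A lists. Between 60% and 70% it was -0.83, -0.63, -0.37 and -0.57, and between 70% and 80% it was -1.42, -1.06, -0.96 and -1.01. For every antibody, CTCF included, promoter sites lay furthest below distal sites of like GC in the GC-richest of these ranges. That range held 2083 promoter sites but only 566 distal sites. Among sites of 55% to 65% GC the difference between cohesin and CTCF lists was -0.23 (exact permutation p = 0.0044), and that between STAG1 and STAG2 lists was -0.12 (exact permutation p = 0.257).

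The promoter sites were not alike among themselves. In WT set 1 the median STAG1 fold enrichment was 9.96 near coding starts and 22.2 near other starts only, while CTCF was 38.2 and 55.2. It was 8.28 where starts lay on both strands and 15.4 where they lay on 1 strand. STAG1 was 10.8 within 100 bp of a start and 19.0 beyond 500 bp, where CTCF was 43.4 and 48.4. Sites with a CTCF core had 23.4 for STAG1 and 67.6 for CTCF, and sites without one had 11.6 and 38.2. Of these groups STAG1 was lowest where starts lay on both strands and highest at sites with a CTCF core. These groups overlap and are given as a description.

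Summits of STAG1 and STAG2 lay to the 3′ side of the CTCF core, and those of CTCF and SMC1A lay on it. Over the 1688 promoter sites the median offset in WT and STAG2-KD of set 1, then of set 2, was 20, 20, 16 and 19 bp for STAG1 and 18, 16, 16 and 15 bp for STAG2. It was 1, 0, -2 and -1 bp for CTCF and -1, 0, 4 and 5 bp for SMC1A, where positive values are 3′ of the core. The STAG1 summit was on the 3′ side at 81.6% and 82.6% of sites in set 1 and at 62.7% and 64.5% in set 2. At 9566 distal sites the STAG1 offsets were 21, 20, 18 and 18 bp, so the displacement was of like size at both kinds of site. The cohesin lists as planned for the test, SMC1A included, averaged 12.3 ± 7.95 bp (SD, n = 12) and the CTCF lists -0.5 ± 1.29 bp (SD, n = 4), a difference of 12.8 bp (exact two-sided permutation p = 0.00769, adjusted p = 0.0231). That p also took lists of the same antibody as separate units. In set 1 alone the difference was 11.7 bp with an exact permutation p of 0.393, because the SMC1A lists lay with the CTCF lists.

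**Figure D3:**
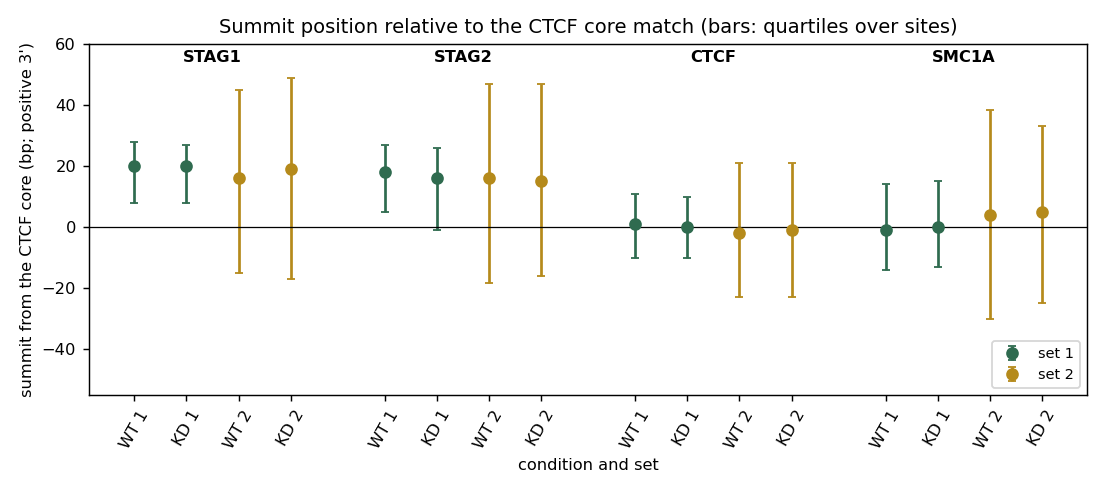
Median position of the summit relative to the centre of the CTCF core in bp (vertical axis, positive to the 3′ side) in each list (horizontal axis) over 1688 promoter sites, with bars for the quartiles over sites. STAG1 and STAG2 medians lay between 15 and 20 bp and CTCF and SMC1A medians between -2 and 5 bp, and the quartiles were wider in set 2.

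Summits of different lists did not always mark the same point. All 16 lay within 200 bp at 5899 promoter sites (69.7%) and at 93.7% of distal sites, and the median spread was 100 bp and 76 bp. In some list 1501 promoter sites (17.7%) shared a wide peak with a neighbouring site. Changes at IER5L, DUSP16, PIK3CA, IRS1, TFAP2A and ZFP91, which the naming rule picks, compare summits more than 1 kb apart and are not described further.

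Relative to the other sites of each antibody, the typical promoter site moved little between WT and STAG2-KD. Each list was centred on the sites of its antibody other than the promoter sites. The mean difference between STAG2-KD and WT libraries in the strength of promoter sites was then -0.01 on the log2 scale for STAG1 (-0.02 in set 1 and -0.00058 in set 2, exact permutation p = 0.667). It was 0.05 for STAG2 (0.07 and 0.03, exact permutation p = 0.3333), -0.11 for CTCF (-0.15 and -0.07, exact permutation p = 0.667) and -0.06 for SMC1A (-0.09 and -0.04, exact permutation p = 0.667). With 2 libraries against 2 the smallest p is 0.3333, so none of these could reach 0.05. The ratio of STAG2-KD to WT fold enrichment was also taken at each promoter site without centring. Its median over the sites was 1.34 and 1.03 for STAG1 in sets 1 and 2. It was 0.772 and 0.908 times for STAG2, 1.01 and 0.971 times for CTCF and 1.15 and 1.17 times for SMC1A. Peaks in both STAG2-KD lists of the STAG2 antibody were required of every site. The lists hold no measure of STAG2 protein.

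Single sites were counted when the centred log2 change passed 0.5 in the same direction in both sets. STAG1 was higher in STAG2-KD at 456 promoter sites (5.38%) and lower at 462 (5.46%), beside 5.51% and 6.03% of all STAG1 sites. STAG2 was higher at 584 (6.90%) and lower at 510 (6.02%), beside 7.29% and 6.7%. CTCF was higher at 326 (3.85%) and lower at 429 (5.07%), beside 5.98% and 6.28%. SMC1A was higher at 503 (5.94%) and lower at 600 (7.08%), beside 6.62% and 6.43%. These shares were near those of all sites, except that fewer promoter sites were higher for CTCF, a difference that was not tested. Without centring the split was 912 higher and 159 lower for STAG1, 229 and 1234 for STAG2, and 1185 and 208 for SMC1A. Over all sites without centring, 10.6% were higher and 2.35% lower for STAG1, 2.87% and 15.7% for STAG2, and 15.2% and 2.27% for SMC1A, so the same imbalance was present at all sites.

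Much of this movement was in the expected background, which MACS2 takes from the input. The SD over promoter sites of the STAG1 change in fold enrichment was 0.57 on the log2 scale in set 1, where that of the change in summit reads was 0.41 and that of the change in expected background 0.56. In set 2 these were 0.48, 0.24 and 0.48. For STAG2 they were 0.59, 0.44 and 0.56, then 0.50, 0.30 and 0.49. The background varied between WT and STAG2-KD as much as the fold enrichment did. The 4 antibodies shared inputs, but the expected background at a site did not always move alike for all of them. At BCL11B in set 1 its centred log2 change was -0.08 in the STAG1 lists and 1.14 in the STAG2 lists. The background had moved opposite to the fold enrichment, past 0.5 in both sets, at 38.7% of the promoter sites higher for STAG2 and at 78.8% of those lower for CTCF, the extremes among the 8 groups.

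**Figure D4:**
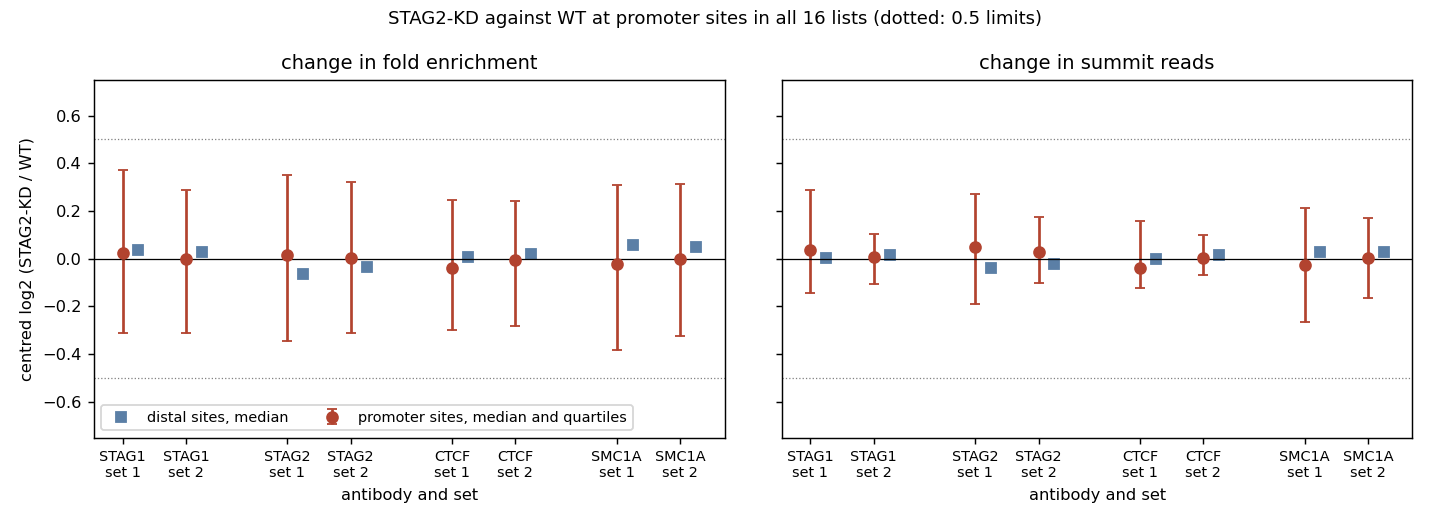
Centred log2 change from WT to STAG2-KD (vertical axis) in fold enrichment (left) and in summit reads (right) for each antibody and set (horizontal axis), as the median and quartiles over promoter sites and the median over distal sites, with dotted lines at 0.5 either way. All medians lay within 0.1 of 0, and the quartiles were narrower by reads than by fold enrichment.

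By summit reads, with the same limit, far fewer sites passed. STAG1 was higher at 59 promoter sites (0.697%) and lower at 68 (0.803%), beside 0.84% and 1.81% of all STAG1 sites. STAG2 was higher at 285 (3.37%) and lower at 103 (1.22%), beside 3.87% and 2.35%. CTCF was higher at 107 (1.26%) and lower at 68 (0.803%), beside 3.18% and 3.7%. SMC1A was higher at 185 (2.18%) and lower at 211 (2.49%), beside 3.28% and 3.76%. Of the promoter sites past the limit by fold enrichment, 40 of 456 (higher STAG1) and 165 of 584 (higher STAG2) were also past it by reads. Among distal sites the STAG2 reads were higher at 1.17% and lower at 2.20%, the opposite balance to promoter sites. That difference between the site classes was not tested, because sites are not replicates.

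One promoter site was the lowest by the naming rule for STAG1, STAG2, CTCF and SMC1A alike, and lay near a Y_RNA gene (chr7:128803296-128804707, 688 bp upstream, summit in an intron). Y RNAs are small non-coding RNAs bound by the Ro protein. STAG1 fold enrichment went from 32.4 to 12.9 in set 1 and from 18.7 to 5.999 in set 2, and CTCF from 94.2 to 33.5 and from 55.1 to 14.7. Its summit reads were 120 and 139, then 130 and 130, for STAG1 and 196 and 210, then 224 and 212, for CTCF. Both STAG2-KD libraries were below both WT libraries by fold enrichment, while the reads of the conditions overlapped or were level. The expected background was higher in STAG2-KD by 2.18 and 1.96 on the centred log2 scale in the STAG1 lists.

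Other promoters named for their fold enrichment had the same feature. Type IX collagen is a cartilage collagen, and at COL9A2 (chr1:40771171-40771540), the gene for 1 of its chains, the STAG1 fold enrichment went from 7.46 to 35.5 and from 7.33 to 21.97. STAG1 reads there were 71 and 98, then 99 and 106, and the background was lower by 2.03 and 1.55 on the centred log2 scale. At APAF1 (chr12:99092476-99093174), the scaffold of the apoptosome, STAG1 fold enrichment went from 16.5 to 52.2 and from 8.69 to 26.7. Its reads were 139 and 181, then 157 and 165. At SUOX (chr12:56389783-56390612, summit in a UTR), which encodes sulfite oxidase, STAG2 fold enrichment went from 42.4 to 10.4 and from 31.2 to 9.18. Its STAG2 reads were 146 and 86, then 157 and 130, and its background was higher by 1.73 and 1.67. At U2AF2 (chr19:56164898-56165575), a splicing factor that recognises the polypyrimidine tract, STAG1 fold enrichment went from 23.4 to 11.1 and from 15.5 to 5.91. STAG1 reads there were 85 and 87, then 95 and 87. In none of these did the reads move by as much as the fold enrichment.

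The same held at LDB3 (chr10:88447867-88448972), which encodes a Z-disc protein of muscle, where CTCF fold enrichment went from 96.5 to 34.7 and from 63.0 to 21.7 while CTCF reads were 182 and 181, then 193 and 186. At PDK2 (chr17:48171194-48172219), a pyruvate dehydrogenase kinase, STAG2 fold enrichment went from 27.7 to 7.26 and from 21.9 to 6.07, with reads of 86 and 52, then 110 and 98. At CTNNB1 (chr3:41240384-41241011), the gene for beta-catenin, both quantities moved for STAG1. Its fold enrichment went from 9.34 to 29.5 and from 8.45 to 20.5, its reads were 44 and 94, then 95 and 121, and their centred changes were 0.90 and 0.39. At the lncRNA ENSG00000230698 (chr3:49937167-49937746) the STAG1 reads fell from 47 to 18 and from 59 to 33, with STAG1 fold enrichment of 14.7 and 4.79, then 11.7 and 4.28. STAG2 reads at the same site were 45 and 14, then 61 and 44, so STAG1 and STAG2 were both lower in STAG2-KD.

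At a small number of promoters the STAG2 reads themselves were higher in STAG2-KD in both sets, with smaller changes for the other antibodies. The MAU2 promoter (chr19:19431506-19431715, 27 bp upstream of the start) is one, and MAU2 is the partner of NIPBL in cohesin loading. STAG2 fold enrichment went from 12.1 to 50.1 in set 1 and from 9.71 to 22.1 in set 2, and STAG2 reads from 37 to 146 and from 44 to 134. Both STAG2-KD libraries were above both WT libraries, and the naming rule had picked the site for a low STAG1 change relative to STAG2. STAG1 reads there were 12 and 13, then 24 and 21. CTCF reads were 20 and 20, then 35 and 32, and SMC1A reads were 9 and 9, then 21 and 21. The STAG1 and SMC1A reads lay below the 5th percentile of promoter sites in every list of these antibodies, so little signal was read there. The STAG2 summits lay within 29 bp of the starting CTCF summit in all 4 lists. A second MAU2 site downstream (chr19:19453293-19454130) had STAG2 reads of 95 and 47, then 106 and 80.

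HASPIN, TMEM11 and CDC20 showed the same direction for STAG2. HASPIN (chr17:3626645-3627134) encodes the kinase that phosphorylates histone H3 at threonine 3, and its STAG2 reads went from 33 to 153 and from 44 to 141, with fold enrichment of 5.90 and 34.9, then 5.46 and 14.8. TMEM11 (chr17:21117772-21118075) encodes a mitochondrial inner membrane protein, and its STAG2 reads went from 67 to 174 and from 81 to 168. CDC20 (chr1:43823606-43824400) encodes an activator of the anaphase-promoting complex, and its STAG2 reads went from 43 to 90 and from 62 to 129. At each of them both STAG2-KD libraries were above both WT libraries, and the naming rule had picked them for a high STAG2 change. At HASPIN the STAG2 summits lay 184 to 274 bp from the starting CTCF summit, at TMEM11 192 to 349 bp and at CDC20 539 to 632 bp, so at these sites STAG2 and CTCF did not peak at the same point. At CDC20 the STAG1 summits lay 4 to 51 bp from the starting CTCF summit, so STAG1 and STAG2 were read at different points there.

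**Figure D5:**
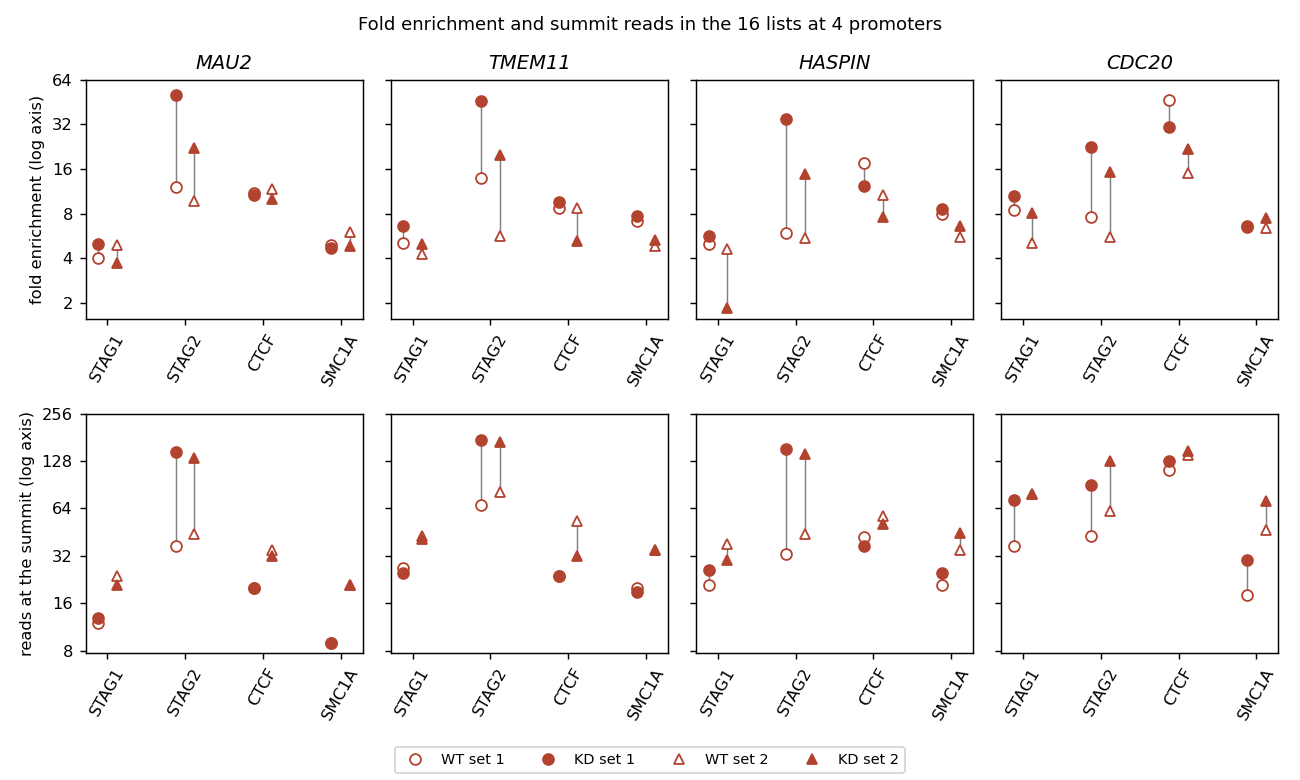
Fold enrichment (upper row) and reads at the summit (lower row), both on log axes, in the 16 lists at 4 promoters, with open symbols for WT, filled symbols for STAG2-KD, circles for set 1 and triangles for set 2, joined within a set. STAG2 was higher in STAG2-KD in both sets at all 4, for example 146 against 37 reads at MAU2 in set 1, while STAG1, CTCF and SMC1A moved less. At HASPIN, TMEM11 and CDC20 the STAG2 and CTCF summits lay apart, so the antibodies were read at different points.

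TRIM65 (chr17:73892393-73893249), an E3 ubiquitin ligase gene, and MRPL11 (chr11:66206128-66207018), a mitochondrial ribosomal protein gene, were also among the 5 promoters highest for STAG2. TRIM65 had STAG2 reads of 53 and 78, then 85 and 161, and MRPL11 of 57 and 93, then 78 and 124. At TRIM65 the CTCF reads were higher in STAG2-KD as well, with 80 and 135, then 135 and 188.

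Promoters of this kind were counted over all sites, by a limit chosen after the values were seen. A site counted when 1 antibody's reads moved by over 1 on the centred log2 scale in both sets and the other 3 stayed within 0.75. STAG2 reads were higher by over 1 at 23 of the 8469 promoter sites. This was a smaller share than over all STAG2 sites, at 350 of 52632 (0.665%). Of the 23, 12 (0.142% of promoter sites) met the whole rule, beside 0.0313% of the sites in all 16 lists. STAG2 reads were higher by over 1 at 8 of the 29821 distal sites, and 0 of them met the rule. By fold enrichment 69 of the 8469 promoter sites were higher by over 1, again a smaller share than the 1.08% of all STAG2 sites. The rule was met at 14, beside 0.0444% of the sites in all 16 lists and 3 distal sites. The STAG2 summits of the 4 lists lay within 200 bp of each other at 7 of the 12 by reads, at AURKAIP1, ERCC6L2, GRK4, HASPIN, MAU2, METTL2B and RPS2. At the others (GSK3A, PEX10, SCYL3, TUBGCP5 and ZFP91) they lay farther apart, at ZFP91 by over 1 kb, so the values there are of different points. Of the 3 sites that met the rule by both measures, only MAU2 had its STAG2 summits within 200 bp. The 584 promoter sites with higher STAG2 by fold enrichment were near a coding start in 70.5%, had starts on both strands in 27.7% and held a CTCF core in 14.6%, beside 62.2%, 19.4% and 20.6% of all promoter sites. The rise in the antibody signal of the depleted protein is given as measured, and antibody specificity at these sites was not tested.

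Among the sites named for a difference between STAG1 and STAG2, the STAG1 reads were higher past the limit at BCL11B (chr14:99738232-99738903, 34 bp upstream), which encodes a zinc-finger transcription factor. STAG1 reads went from 55 to 96 in set 1 and from 72 to 100 in set 2, while STAG2 reads were 56 and 35, then 78 and 57. The centred changes were 0.61 and 0.51 for STAG1 reads and -0.21 and -0.37 for STAG2 reads, so STAG2 did not pass by reads. STAG1 fold enrichment was 15.5 and 32.6, then 8.03 and 16.9, and STAG2 fold enrichment was 18.2 and 6.91, then 10.95 and 7.11. The centred background changes in sets 1 and 2 were -0.08 and -0.54 for STAG1 and 1.14 and 0.16 for STAG2. CTCF reads were 69 and 75, then 95 and 95. The STAG1 reads of both STAG2-KD libraries were above those of both WT libraries. The STAG2 reads were lower in STAG2-KD within each set, and the conditions overlapped only across the sets. All STAG1 and STAG2 summits lay within 31 bp of the CTCF summit, whose surrounding bases (chr14:99738572-99738672, hg19 plus strand) hold no match to the CTCF core and are given because the STAG1 reads passed the limit there.
BCL11B: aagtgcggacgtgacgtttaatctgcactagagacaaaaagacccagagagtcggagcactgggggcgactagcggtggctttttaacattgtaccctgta

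At TUBB2A (chr6:3157398-3158434), a beta-tubulin gene, the STAG1 reads were 48 and 62, then 82 and 81, and the STAG2 reads 84 and 47, then 129 and 112. At SEC31B (chr10:102278110-102279204), a COPII coat gene, the STAG1 reads were 98 and 97, then 99 and 87, and the STAG2 reads 79 and 50, then 82 and 72. At neither was STAG1 higher in both sets by reads, although the fold enrichments of the antibodies differed in direction. The centred background changes in sets 1 and 2 at TUBB2A were 0.70 and -0.10 for STAG1 and 1.73 and 1.25 for STAG2. At SEC31B they were -0.40 and -0.47 for STAG1 and 1.47 and 1.13 for STAG2. No enrichment or overlap test was made on such pairs, because the lists of a condition share an input.

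Near lncRNA starts the reads of CTCF or SMC1A were higher in STAG2-KD at the sites named for them. CTCF reads were 43 and 77, then 57 and 98, at ENSG00000225096 (chr6:58296852-58297177). SMC1A reads were 18 and 43, then 25 and 58, at ENSG00000274248 (chr21:47393423-47394206) and 49 and 105, then 79 and 146, at ENSG00000262691 (chr16:67294399-67295098). At IRF1-AS1 (chr5:131755127-131756005), named for a lower SMC1A fold enrichment of 21.9 and 8.72, then 17.6 and 6.39, the SMC1A reads were 49 and 51, then 83 and 84. The first 3 thus moved by reads and IRF1-AS1 did not. The other site named for higher CTCF, ENSG00000286874 (chr7:4681038-4681391), had CTCF reads of 17 and 127, then 117 and 140. Their centred changes were 2.79 and 0.24, so set 2 did not pass the limit. The other CTCF summits there lay 540 to 588 bp from the starting one, so these values are of different points.

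When promoters were ranked by the change in reads of the weaker set, after the values were seen, further sites came forward. STAG2 reads were higher at GRK4 (chr4:2965157-2965740), which encodes a G protein-coupled receptor kinase, going from 49 to 162 and from 57 to 153. They were lower at COL23A1 (chr5:178017511-178018105), a transmembrane collagen gene, going from 61 to 12 and from 63 to 31, where STAG1 reads were 57 and 53, then 59 and 62. At DAPK1 (chr9:90282086-90282650), a death-associated kinase gene, STAG2 reads went from 45 to 14 and from 47 to 20 and STAG1 reads were 79 and 34, then 69 and 52. CTCF reads at COL23A1 were 44 and 46, then 93 and 64, and its STAG2 background was level in set 1 and lower by 0.78 in set 2 on the centred log2 scale. At DAPK1 the STAG1 reads were lower as well. STAG1 reads were lower at KDM4A (chr1:44119046-44119443), a histone H3 lysine demethylase gene, going from 45 to 22 and from 69 to 37, while CTCF reads there were 48 and 80, then 93 and 115.

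CTCF reads were lower at PMFBP1 (chr16:72183777-72184289), going from 65 to 28 and from 96 to 52, and SMC1A reads there from 21 to 7 and from 42 to 18. Its STAG1 reads were 41 and 43, then 50 and 46, and its STAG2 reads 59 and 31, then 71 and 51. The CTCF background there was lower by 1.22 and 1.19 on the centred log2 scale, and CTCF fold enrichment was 21.4 and 14.8, then 16.86 and 16.88, so in set 2 it was level. CTCF reads were higher at ACO1 (chr9:32384484-32384635), the gene for the cytosolic aconitase that also regulates iron, going from 15 to 32 and from 24 to 49. SMC1A reads were higher at MTFR1L (chr1:26152188-26152342), going from 9 to 29 and from 27 to 71, and lower at TP73 (chr1:3643787-3644406), a p53-family gene, going from 27 to 10 and from 39 to 22. At each of these 4 promoters the reads named did not overlap between WT and STAG2-KD libraries, and the ranking picked them for it.

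Gene lists were read against the 28.7% of coding genes with a promoter site. Of 15 genes of cohesin and its regulators, 9 had one, at RAD21, STAG1, STAG2, NIPBL, MAU2, PDS5A, PDS5B, ESCO1 and CTCF. Over their 10 sites, only the first MAU2 site passed the limit by reads, for STAG2. By fold enrichment STAG2 was higher at 2 sites (NIPBL and MAU2) and lower at 1 (ESCO1), CTCF was lower at 1 (ESCO1) and SMC1A was lower at 1 (RAD21). The promoter of STAG2 itself (chrX:123093926-123094752, 30 bp upstream) had STAG2 fold enrichment of 69.4 and 63.2 in set 1 and 42.0 and 37.3 in set 2. STAG1 fold enrichment there was 47.2 and 65.9, then 35.2 and 34.4, and STAG2 reads were 217 and 197, then 194 and 197. The STAG2 reads of the conditions overlapped there, and in set 1 they lay near the highest values of the lists. At the STAG1 promoter (chr3:136470415-136472168) the STAG1 reads were 217 and 222, then 244 and 243.

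Of 18 interferon-signalling genes, 8 had a promoter site (JAK1, JAK2, IRF1, IRF9, ISG15, SOCS1, SOCS3 and CD274), and none passed the limit by reads for any antibody. By fold enrichment STAG2 was lower at JAK2 only. At IRF9 (chr14:24630034-24630701, 86 bp upstream), a subunit of the interferon-stimulated gene factor, CTCF fold enrichment was 94.9 and 69.4, then 53.6 and 41.4, while CTCF reads were 179 and 179, then 172 and 162. STAG2 reads there were 70 and 44, then 91 and 84, and STAG1 reads were 53 and 64, then 72 and 72. At CD274 (chr9:5450378-5450884), the gene for PD-L1, STAG2 reads were 115 and 115, then 142 and 144.

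Of 14 MAPK pathway genes, 8 had a promoter site, among them BRAF, MAP2K1, MAP2K2, DUSP4, SPRY2 and SPRY4, with 14 sites in all. STAG2 was higher by reads at 2 of them, MAP2K2 (chr19:4123726-4124169) and SPRY2. MAP2K2, which encodes the kinase MEK2, had STAG2 reads of 28 and 77, then 45 and 82, with STAG1 reads of 12 and 14, then 22 and 20. At SPRY2 the STAG2 summits of a wide peak were far apart, so its change is not described. By fold enrichment STAG2 was higher at the same 2 and lower at a site (chr15:66678628-66679320) whose nearest coding start is that of TIPIN and which is within 1 kb of a MAP2K1 start, and of the genes named here SMC1A was lower at SPRY4.

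Of 8 melanocyte-lineage genes, 4 had a promoter site, at MITF, SOX10, PAX3 and TYRP1. STAG1 was lower at 1 of their 5 sites by reads and by fold enrichment, at TYRP1, a melanosomal enzyme gene, with reads of 34 and 25, then 55 and 32. At SOX10, a lineage transcription factor, CTCF reads were 196 and 186, then 208 and 193. SMC1A was lower at MITF by fold enrichment (7.22 and 4.12, then 6.99 and 4.73), and SMC1A reads there were 23 and 21, then 55 and 55.

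The remaining lists hold housekeeping genes. Of 14 replication-licensing genes, 5 had a promoter site (ORC1, ORC2, ORC4, ORC6 and CDC6). STAG2 was higher at ORC2 by reads (30 and 34, then 56 and 95) and at ORC2 and ORC6 by fold enrichment, and STAG1 was higher at ORC6 by fold enrichment. Of 14 proteasome core genes, 3 had one (PSMA7, PSMB3 and PSMB4), and STAG1 was lower at PSMB4 by reads (48 and 31, then 73 and 45). By fold enrichment no antibody passed at these 3. Of 12 RNA polymerase II subunit genes, 5 had one (POLR2A, POLR2C, POLR2D, POLR2H and POLR2J), over 7 sites. STAG2 was higher by reads at POLR2J and by fold enrichment at POLR2J, POLR2C and a site near POLR2A whose nearest coding start is that of ZBTB4, and SMC1A was higher at 1 site and lower at 2 by fold enrichment. Of 6 shelterin genes, 2 had one (TERF2 and TINF2). TINF2 was higher for STAG1, STAG2 and CTCF by fold enrichment and for none by reads, with STAG2 reads of 139 and 95, then 155 and 144.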

How the data were processed

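The deposited narrowPeak lists, 1 per library, hold for each peak a score, a fold enrichment at the summit (a ratio of pileup to expected background), a −log10 p-value, a −log10 q-value and a summit offset, all as the authors deposited them. Per the submitters' processing notes, set 1 used Bowtie2 and MACS2, and set 2 used CASAVA 1.4, BWA, SAMtools, Picard, MACS2 and deepTools. The study's methods name bowtie2. All lists use hg19. Set 1 lists were limited by q-value and set 2 lists by p-value (−log10 of at least 2), with narrowest peaks of 120 and 150 bp. Inputs entered only as the authors' controls.

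The promoter sites and the gene lists were chosen with earlier results of these data known. Peaks were matched by overlap of at least 1 bp, the peak with the highest −log10 p being taken where several overlapped, and transcript starts came from GENCODE version 44 lifted to GRCh37. Each site was named by the nearest coding start within 1 kb, otherwise by the nearest transcript. Sites described were the 5 with the highest lowest percentile of fold enrichment, the 5 highest and 5 lowest for STAG1, for STAG2 and for their difference by the weaker set (2 each way for CTCF and SMC1A), those at the distance limit and those of 8 gene lists. Changes at single sites were log2 ratios within a set, centred on the median of all sites in the 4 lists of the antibody. For the tests between WT and STAG2-KD, the strength of promoter sites was centred on the other sites in those lists only.

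No count table was used, so library totals are not analysed here. MACS2 derives fold enrichment and p-value from pileup and background, so whole reads at each summit were solved from both, for 99.8% to 100% of promoter sites in a list (median 33 to 150 reads). Counting error of a change was 0.17 to 0.34 on the log2 scale. Libraries of a set share an extraction and size-selection protocol per the labels, which pairs them. Tests were two-sided exact permutation tests over libraries with Benjamini-Hochberg adjustment over 3 tests. Those 3 tests compared antibodies and took libraries of the same antibody as separate units, so they do not measure a spread between antibodies. Scripts were tested on simulated data. Alternatives were another strength measure, no centring, 50% overlap, −log10 q of at least 5, other windows and distances, coding transcripts only, each replicate left out and a replicate block. Summits within 200 bp, 55% to 65% GC, summit reads in place of fold, the counts for 1 antibody and the ranking by reads were added after seeing the data. Python 3.11.15, NumPy 2.4.6, pandas 2.3.3, SciPy 1.17.1 and matplotlib 3.10.9 were used. Some values and 1 sequence are not reported here.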

Additional observations from a re-analysis of the deposited data

Results flagged for a closer look

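Some rows of the lists lay on other sequences than chromosomes 1 to 22 and X and could not yield a promoter site. They were 3.89% of the rows in set 1 (median over its lists, range 3.02% to 4.76%) and 0.22% in set 2 (range 0.145% to 0.298%). They are given because they are signal outside the comparisons, for which no control list was used here.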

How the results depend on the processing

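Of 137 alternatives to 18 results, 82 gave the same reading. Without centring, the change in strength at promoter sites was 0.30 for STAG1, -0.27 for STAG2 and 0.23 for SMC1A, each with the opposite sign, and the counts past the limit were 912 and 159 (STAG1, higher and lower), 229 and 1234 (STAG2) and 1185 and 208 (SMC1A). The STAG1 change was 0.0099 by summit reads and the STAG2 change -0.0054 with summits within 200 bp, again of opposite sign. By summit reads the counts were 59 and 68 (STAG1), 285 and 103 (STAG2), 107 and 68 (CTCF) and 185 and 211 (SMC1A), and at a limit of 1 on the log2 scale 22 and 36, 69 and 43, 16 and 26, and 34 and 49. With summits within 200 bp, STAG2 was higher at 358, CTCF higher at 195 and SMC1A lower at 386 of 5899 sites, fewer sites being read. With a replicate left out, a single set decided the call and the counts ranged from 1116 to 1563 higher and 1256 to 1331 lower for STAG1, 1305 to 1486 and 1238 to 1446 for STAG2, 931 to 1045 and 1067 to 1133 for CTCF, and 1265 to 1288 and 1295 to 1599 for SMC1A. The difference between cohesin and CTCF lists then ranged from -0.42 to -0.20 (exact permutation p = 0.0714 without set 2, 0.107 without set 1), and the summit offset from 11.7 bp (p = 0.393 without set 2) to 14 bp (p = 0.0357 without set 1). Fewer lists entered these tests. STAG1 and STAG2 lists differed by -0.22 with −log10 q of at least 5 and by -0.20 with summits within 200 bp, each with an exact permutation p of 0.0286. The cause was not tested.

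With the replicate block, which pairs libraries by set, the changes of -0.01 (STAG1), 0.05 (STAG2), -0.11 (CTCF) and -0.06 (SMC1A) each had an exact permutation p of 0.5, the smallest it allows. The exact permutation p within blocks was 0.0102 for the offset difference of 12.8 bp, 0.0153 for that between cohesin and CTCF lists of -0.31 and 0.0556 for that between STAG1 and STAG2 lists of -0.26, so the block changed no call. Coding transcripts alone gave 5268 promoter sites. The share with a CTCF core was 21.5% in a window of 200 bp and 23.4% with −log10 q of at least 5. By summit in place of midpoint the sites lay a median of 41 bp upstream (-41). Depth limits single sites: at 33 to 150 reads a site, counting error alone was 0.17 to 0.34 on the log2 scale, and in the lists where sites gather near the highest reads, such as CTCF of set 1, changes at the strongest sites may not show. The lists give no value for a site without a peak.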

Other observations

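The letters TCGCGAGA, searched on both strands after the STAG2 reads at single promoters had been seen, were within 100 bp of the STAG2 summit of STAG2-KD set 1 at 72 promoter sites (0.8502%), at 7 distal sites (0.0235%) and at 0.605% of all annotated starts. HASPIN holds them there. At the 72 promoter sites the STAG2 reads changed from WT to STAG2-KD by a median of 1.09 on the centred log2 scale in set 1 (above 0 at 71 of 72) and by 0.49 in set 2 (above 0 at 63 of 72). The STAG2 fold enrichment changed by a median of 0.97 (66 of 72) and 0.49 (53 of 72). For STAG1, CTCF and SMC1A the median change in reads lay between -0.04 and 0.09. Of the 12 promoters where the STAG2 reads alone were higher, 5 held the letters. Over all promoter sites the median change in STAG2 reads was 0.05 in set 1 and 0.03 in set 2. The change in STAG2 fold enrichment was above 0 at 51.1% and 50.2% of them. The window was placed on a summit of a list whose change is given, so the 72 sites were not chosen independently of it. Their values describe sites picked with the values known, and no test was made. The bases under that HASPIN summit (chr17:3627178-3627206, hg19 plus strand) are given as an example, with the letters in capitals on the reverse strand.
HASPIN: cgcacggaagTCTCGCGAtgtttgcgttt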
